A study of Mus musculus with 8 samples.

Results

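The expression of 10 genes of antigen presentation was examined in whole kidneys of adult mice with and without Keap1, the adaptor that sends the transcription factor Nrf2 to degradation. The genes were listed by name: H2-Aa, H2-Ab1, H2-Eb1, H2-DMa, Cd74 and Ciita of the class II pathway, and B2m, H2-K1, H2-D1 and Tap1 of the class I pathway. Of these 10, 9 had probes that could be named by their transcript accession, and all 9 were tested among 19593 genes and unnamed transcripts. H2-Eb1 was not analysed here. The 9 genes were read by 16 probes, each well above background on all 8 arrays.

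Total RNA of 1 kidney sample per mouse was hybridised to 1-colour Agilent arrays. The 4 NEKO mice were Keap1-/-::Nrf2 Flox/Flox::K5-Cre, 2 females (mice 2 and 3) and 2 males (mice 5 and 6). The 4 controls carried 1 intact Keap1 allele and were littermates of the same crosses: mouse 1, a female, was K1 (Keap1+/-::Nrf2 Flox/Flox), and the other 3 were K1Cre (Keap1+/-::Nrf2 Flox/Flox::K5-Cre), female mouse 8 and males 4 and 7. All 8 mice were 8 weeks old, all carried floxed Nrf2, and all were of a mixed background with 129Sv/J and C57BL/6J contributions. K5-Cre is driven by the Keratin5 promoter in squamous epithelium, so Nrf2 was deleted there and not by design in the kidney, whereas Keap1 was absent from every cell of NEKO mice. Both females and males were present in equal number in each group, but all females were on 1 slide and all males on the other, so sex, slide and scan cannot be told apart.

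Class I molecules, a heavy chain such as H2-K1 or H2-D1 bound to beta-2-microglobulin (B2m), show peptides made inside the cell to CD8 T cells, and almost every cell carries them. Their peptides are cut by the proteasome and moved into the endoplasmic reticulum by the transporter to which Tap1 belongs. Class II molecules, an alpha and a beta chain such as H2-Aa and H2-Ab1, show peptides from engulfed material to CD4 T cells, and in a resting kidney they are made mainly by dendritic cells, macrophages and B cells, with Cd74 as their chaperone, H2-DMa as part of the peptide exchanger and Ciita as the coactivator that turns the class II genes on.

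The promoters of these genes hold short motifs by which they are switched on together, and 4 are shown because they bear the letters of such motifs in a class II chain gene and in the 3 class I chain genes. Windows of 300 bases, 250 before and 50 after the annotated start, came from RefSeq on build GRCm38.p6, and the table held 7 of the 10 genes. H2-Ab1, Cd74 and Ciita were not among them. The sequences run 5′ to 3′ in the direction of the gene: H2-Aa at chr17:34287774-34288073 on the minus strand, B2m at chr2:122147437-122147736 on the plus strand, H2-K1 at chr17:34000298-34000597 on the minus strand (1 of 2 windows of this gene) and H2-D1 at chr17:35262844-35263143 on the plus strand. Capitals mark the Y box core ATTGG or its reverse complement CCAAT (the letters that NF-Y binds), the interferon response element in B2m and the antioxidant response element core TGACNNNGC in H2-K1, which is read there on the opposite strand.
H2-Aa: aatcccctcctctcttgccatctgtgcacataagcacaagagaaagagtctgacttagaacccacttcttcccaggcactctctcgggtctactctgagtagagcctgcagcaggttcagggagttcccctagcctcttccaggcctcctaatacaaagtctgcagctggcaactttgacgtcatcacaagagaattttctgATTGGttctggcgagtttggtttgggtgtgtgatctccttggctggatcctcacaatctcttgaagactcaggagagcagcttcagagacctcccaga
B2m: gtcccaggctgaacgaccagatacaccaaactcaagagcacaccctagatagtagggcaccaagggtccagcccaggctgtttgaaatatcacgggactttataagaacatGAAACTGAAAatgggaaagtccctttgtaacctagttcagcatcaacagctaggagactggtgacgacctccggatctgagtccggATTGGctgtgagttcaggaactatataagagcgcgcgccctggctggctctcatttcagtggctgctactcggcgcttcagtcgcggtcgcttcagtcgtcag
H2-K1: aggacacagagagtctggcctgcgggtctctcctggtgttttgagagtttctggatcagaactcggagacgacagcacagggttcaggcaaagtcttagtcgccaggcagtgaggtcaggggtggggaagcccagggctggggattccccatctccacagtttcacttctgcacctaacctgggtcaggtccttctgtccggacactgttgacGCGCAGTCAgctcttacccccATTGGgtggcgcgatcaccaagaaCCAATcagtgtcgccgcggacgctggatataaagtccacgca
H2-D1: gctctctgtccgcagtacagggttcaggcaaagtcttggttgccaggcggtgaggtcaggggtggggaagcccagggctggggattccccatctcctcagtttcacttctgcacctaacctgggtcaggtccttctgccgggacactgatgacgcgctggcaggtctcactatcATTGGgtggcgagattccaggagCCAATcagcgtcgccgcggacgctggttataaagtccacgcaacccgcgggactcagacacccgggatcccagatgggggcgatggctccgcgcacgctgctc

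The Y box letters were present in all 7 genes with a window, against 37.4% of 32851 promoter windows of the same length searched on both strands. In H2-Aa the first base of ATTGG lay at -48 relative to the start, and in B2m at -53. For the interferon response element only 1 pattern of letters was searched. That pattern matched in B2m alone of the 7, as GAAACTGAAA from -139, and in 3.44% of all windows. Other forms of this element were not searched for, so genes without a match cannot be said to lack it. The antioxidant response element core, the motif through which Nrf2 acts, was found in H2-K1 alone of the 7, as GCGCAGTCA on the opposite strand from -37, and in 12.4% of all windows. Letters of the X box core CCNNGNNAC, searched for the RFX factors, were in 5 of 7 genes and in 47.4% of all windows, and those of the gamma activated site TTCNNNGAA were in none of the 7 and in 8.3% of all windows. Motif matches overlapped no other match. The H2-K1 and H2-D1 windows were 90.4% identical over 228 aligned columns, and since these genes and their Qa-region relatives are near-identical copies, their probes may share signal and the split between them is uncertain.

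Levels are given as the log2 of the processed signal less the 75th percentile of the same array, so that 0 is the level of a probe at that percentile. Keap1, the gene deleted in NEKO mice, ranged from 1.77 to 1.92 in controls and from 0.060 to 0.45 in NEKO kidneys (log2 change -1.63, limma adjusted p = 0.00458), and the Nrf2 target Txnrd1 was higher by 1.30 (adjusted p = 0.0486). Of the other 4 targets checked, Nqo1 (2.62), Gclc (0.95) and Gclm (0.57) had values above 0 but were not called (adjusted p = 0.0651, 0.246 and 0.109), and Hmox1 was at -0.079. The share of probes well above background per array was 61.7% to 65.7%. The tubule markers Slc34a1 and Lrp2 were at 6.78 or above on all 8 arrays, whereas the single probes of Cd4, Cd79a, Pax5 and Blk, which define T or B cells, were well above background on 0 of 8 arrays. In whole kidney RNA, fewer cells of a type and less RNA per cell cannot be told apart. Each array is 1 mouse, so p-values measure the spread between these few mice, and the number of arrays limits the precision.

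None of the 9 genes differed between NEKO and control kidneys at an adjusted p under 0.05 when both sexes were fitted together (0 higher, 0 lower), where 0.097% of everything tested was called higher and 0.128% called lower. Before adjustment 0 of 9 reached p under 0.05 in limma, against 7.37% higher and 10.6% lower over everything tested. Nor did the 4 NEKO mice lie wholly above or below the 4 controls for any of the 9, which was the case for 3.89% (above) and 5.36% (below) of the features with a value on every array. The log2 change was below 0 for 7 of 9 genes, with a median of -0.24, beside -0.032 over everything tested, where 43.8% of changes were above 0. The widest departure was in Cd74 and the narrowest in H2-DMa.

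**Figure D1:**
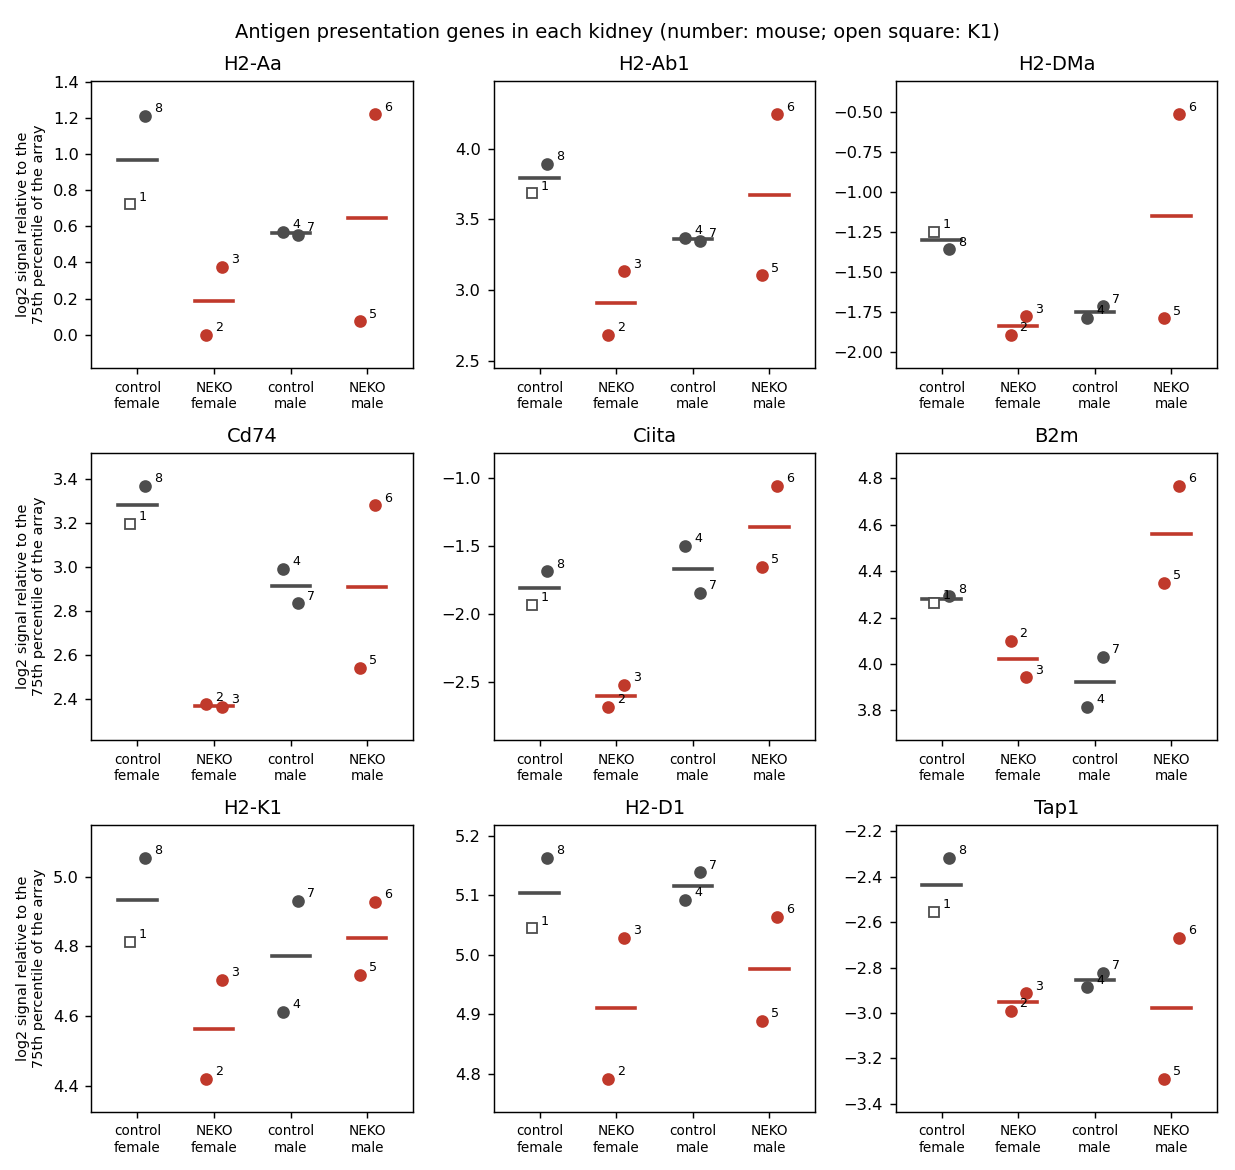
Level of each of the 9 genes in each kidney, as log2 signal less the array's 75th percentile, with points for single mice (numbers name the mouse, the open square is the K1 control) and bars for the mean of 2 mice. In every panel both NEKO females lie below both control females, and NEKO male 6 is the highest of the 4 NEKO mice.

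Cd74, the invariant chain that guides class II molecules to the compartment where peptides are loaded, was measured at 3.20 and 3.37 in control females 1 and 8, at 2.38 and 2.37 in NEKO females 2 and 3, at 2.99 and 2.84 in control males 4 and 7, and at 2.54 and 3.28 in NEKO males 5 and 6. Of the NEKO mice, 3 lay below all 4 controls, and mouse 6 lay above all controls but mouse 8. The log2 change was -0.46 (SE 0.23, n = 4 per group, limma adjusted p = 0.345), or 0.729 times the control level, with a 95% interval from -1.01 to 0.093 on the log2 scale.

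H2-Aa, the alpha chain of the class II molecule I-A, whose Y box stands in the first sequence above, was at 0.72 and 1.21 in control females 1 and 8, at -0.0021 and 0.38 in NEKO females 2 and 3, at 0.57 and 0.55 in control males 4 and 7, and at 0.074 and 1.22 in NEKO males 5 and 6. Again NEKO mice 2, 3 and 5 were below every control and mouse 6 was the highest of the 8. Its change was -0.35 (SE 0.30 on the log2 scale, adjusted p = 0.560, limma), and the second probe gave -0.28.

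Its partner H2-Ab1, the beta chain, was at 3.68 and 3.89 in the control females, at 2.68 and 3.13 in the NEKO females, at 3.37 and 3.35 in the control males, and at 3.104 and 4.244 in NEKO males 5 and 6. The same 3 NEKO mice were below all controls, with mouse 6 above them all. Its log2 change was -0.28 (SE 0.33, adjusted p = 0.667, limma), and the other 2 probes gave -0.25 and -0.37.

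H2-DMa, the alpha chain of the molecule that exchanges peptides on class II, had levels of -1.25 and -1.36 in control females 1 and 8, -1.89 and -1.77 in NEKO females 2 and 3, -1.78 and -1.71 in control males 4 and 7, and -1.79 and -0.51 in NEKO males 5 and 6. Here the groups were interleaved. The 2 NEKO females, NEKO male 5 and the 2 control males lay within a narrow range, the control females were above them and mouse 6 was the highest of all. The fitted log2 change was 0.033 (SE 0.33, adjusted p = 0.967, limma).

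Ciita, the class II transactivator, was at -1.93 and -1.69 in the control females, -2.68 and -2.52 in the NEKO females, -1.50 and -1.84 in the control males, and -1.65 and -1.06 in NEKO males 5 and 6. The NEKO females were the 2 lowest mice and mouse 6 the highest. For Ciita the log2 change was -0.24 (SE 0.26, adjusted p = 0.642, limma).

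Among the class I genes, B2m was at 4.26 and 4.29 in control females 1 and 8, at 4.10 and 3.94 in NEKO females 2 and 3, at 3.82 and 4.03 in control males 4 and 7, and at 4.35 and 4.77 in NEKO males 5 and 6. Both NEKO males were above all 4 controls, and both NEKO females were below the control females but not below both control males. Its log2 change was 0.19 (SE 0.20, adjusted p = 0.634, limma), the highest of the 9, and the second probe gave 0.15.

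H2-K1, a classical heavy chain, was at 4.81 and 5.06 in the control females, 4.42 and 4.70 in the NEKO females, 4.61 and 4.93 in the control males, and 4.72 and 4.93 in the NEKO males. All levels lay within a span smaller than 1 log2 unit and the groups overlapped. H2-K1 had a log2 change of -0.16 (SE 0.14, adjusted p = 0.566, limma), with -0.15 and -0.27 from the other 2 probes.

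H2-D1, the other classical heavy chain, had the narrowest spread. It was at 5.04 and 5.16 in the control females, 4.79 and 5.03 in the NEKO females, 5.09 and 5.14 in the control males, and 4.89 and 5.06 in the NEKO males. Only mouse 6 of the NEKO group was above any control, and that control was mouse 1. Its fitted log2 change was -0.17 (SE 0.085, adjusted p = 0.345, limma), and the exact two-sided permutation of 4 mice against 4 gave p = 0.0571, the lowest of the 9 genes, where 0.0286 is the smallest that the 70 splits allow.

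Tap1, a subunit of the peptide transporter, was at -2.55 and -2.32 in the control females, -2.99 and -2.91 in the NEKO females, -2.89 and -2.82 in the control males, and -3.29 and -2.67 in NEKO males 5 and 6. NEKO mice 2, 3 and 5 lay below every control and mouse 6 lay above both control males. Tap1 had a log2 change of -0.32 (SE 0.16, adjusted p = 0.335, limma).

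The question of whether the genotype change was the same in females and males was then put to the data, since each group held 2 mice of each sex. In females, both NEKO mice were below both controls for 9 of 9 genes, where this held for 25.1% of the features with a value on every array. The changes in females were largest for Cd74 (-0.91), H2-Ab1 (-0.88), Ciita (-0.79) and H2-Aa (-0.78), and smaller for H2-DMa (-0.53), Tap1 (-0.52), H2-K1 (-0.37), B2m (-0.26) and H2-D1 (-0.19). In a limma fit of the females alone, 6 of 9 genes had an unadjusted p under 0.05, against 5.83% of everything tested on the same side, but none passed adjustment (0 higher and 0 lower, background 0.0153% and 0.0051%), the lowest adjusted p being 0.338 for Cd74. The 6 were the 5 class II genes and Tap1.

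In males the picture was mixed. Both NEKO males were above both controls for 1 of 9 genes (B2m, background 24.2%) and below both for 1 (H2-D1, background 28.4%), while the other 7 overlapped, and the limma fit of the males alone called 0 higher and 0 lower (background 0.74% and 0.449%). The log2 changes in males were 0.64 for B2m, 0.60 for H2-DMa, 0.32 for H2-Ab1, 0.31 for Ciita, 0.086 for H2-Aa, 0.051 for H2-K1, -0.0017 for Cd74, -0.12 for Tap1 and -0.14 for H2-D1. The other 2 H2-K1 probes both gave -0.17, so this gene's direction in males depended on the probe. Leaving NEKO male 6 out, the male value became -0.49 for H2-Aa, -0.25 for H2-Ab1, -0.37 for Cd74, -0.040 for H2-DMa and 0.016 for Ciita, and remained 0.43 for B2m, values that rest on 1 NEKO mouse and carry no test.

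By the probe read for each gene, the change was higher in males than in females for 9 of 9 genes, against 50.3% of everything tested. The difference itself did not pass adjustment in the interaction model for any gene (0 of 9, background 0.0153%), and the genotype effect averaged over the sexes in that model called 0 higher and 0 lower (background 1.25% and 1.37%). The difference was 1.20 for H2-Ab1, 1.13 for H2-DMa, 1.11 for Ciita, 0.91 for Cd74, 0.89 for B2m and 0.87 for H2-Aa. For H2-D1, Tap1 and H2-K1 it was between 0.055 and 0.42. By 1 of the other H2-K1 probes the change was lower in males (-0.17) than in females (-0.12). Unadjusted p-values of limma were under 0.05 for 3 of 9 (B2m 0.0087, Ciita 0.0141 and Cd74 0.0340), beside 6.87% of everything tested in this direction and 3.65% in the other, and their adjusted p-values were 0.237, 0.288 and 0.409.

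**Figure D2:**
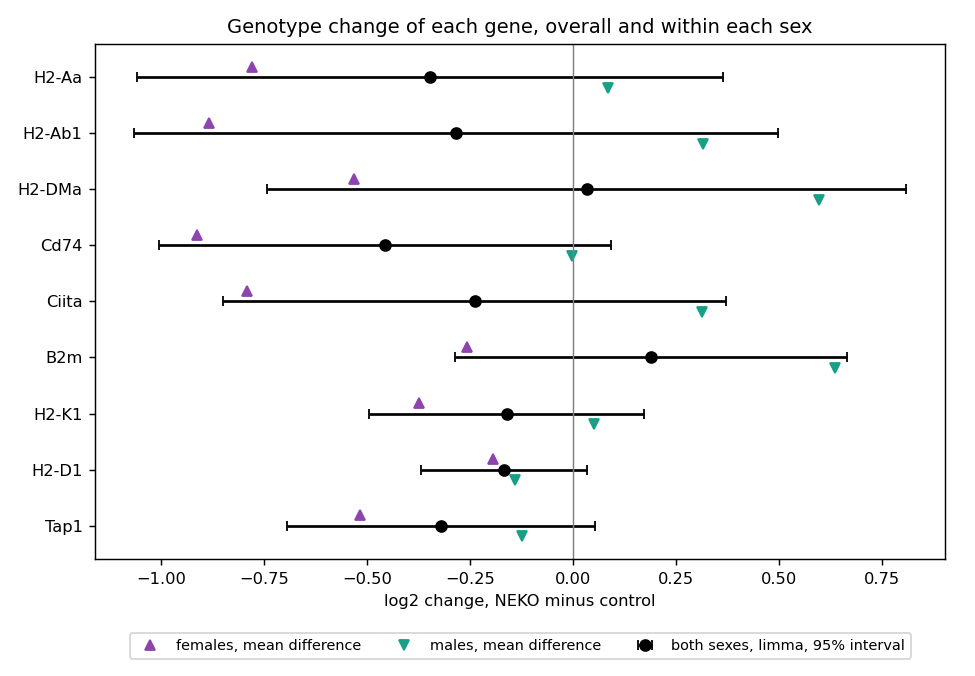
Log2 change from control to NEKO for each gene, with black points and 95% intervals from limma over both sexes, and triangles for the difference of means within females (upward) and within males (downward), each of 2 mice against 2. All 9 intervals cross 0, all female values are below 0, and each male value lies to the right of the female value.

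The level in the controls differed by sex as well. The 2 control males were lower than the 2 control females by a mean of 0.43 for H2-Ab1, 0.45 for H2-DMa, 0.42 for Tap1, 0.41 for H2-Aa, 0.37 for Cd74, 0.35 for B2m and 0.16 for H2-K1 on the log2 scale, while Ciita and H2-D1 were higher in males by 0.14 and 0.011. In NEKO mice the males were higher than the females by 0.46 to 1.24 for the 5 class II genes and by 0.54 for B2m. Both NEKO females were below both control males too for Cd74, Ciita, H2-Aa, H2-Ab1, Tap1 and H2-D1, whereas 1 of the 2 NEKO females was not for H2-DMa and H2-K1, and neither lay below both for B2m. These sex differences stand together with slide and scan.

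NEKO male 6 was the highest of the 4 NEKO mice for 9 of 9 genes, which was true of 21.5% of everything tested, and the highest of all 8 mice for 5 of 9 (12.5%): H2-Aa, H2-Ab1, H2-DMa, Ciita and B2m. NEKO female 2 was the lowest of the 8 for 6 of 9 (10.3%). Without mouse 6 the log2 change was below 0 for 8 of 9 genes, with a median of -0.47 beside -0.024 over everything tested. Values were then -0.69 for Cd74, -0.66 for H2-Aa, -0.63 for H2-Ab1, -0.48 for Tap1 and -0.34 for H2-DMa, and these 5 had an unadjusted limma p under 0.05 (background 7.9% in that direction). Still none was called, the lowest adjusted p being 0.173 for Tap1. Mouse 6 was the highest NEKO mouse for all 9 genes, so leaving it out lowers the NEKO mean of each by construction. The background is not limited to features of that kind, so it is not a like comparison. With any other single mouse left out, 0 of 9 had an unadjusted limma p under 0.05.

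Some of the 9 genes lay closer in pattern than others over the 8 kidneys. With each gene centred on its own mean, H2-Aa and H2-Ab1 differed by a root mean square of 0.14 log2 units, H2-Aa and Cd74 by 0.18, and H2-Ab1 and Cd74 by 0.20, where the spread of Cd74 itself was 0.40 (SD). H2-DMa was 0.30 from Cd74, and Ciita stood farther off, at 0.33 from Cd74 and 0.39 from H2-Aa, while the class I gene Tap1 was 0.22 from Cd74. H2-K1 and H2-D1 differed by 0.12, and H2-K1 and Tap1 by 0.21. Among 13510 named genes outside the 9 with a value on every array, those nearest to Cd74 were Ifi47 (0.10), Evi2a (0.13), the immunoproteasome subunit Psmb9 (0.14), Igtp (0.15) and Lrrc25 (0.16), of which Ifi47 and Igtp are interferon-inducible GTPases. Nearest to H2-K1 were Ubxn7 (0.046), the class I-like gene H2-M3 (0.075), Fam162a (0.079), Tmem39a (0.087) and Zxdc (0.088). These likenesses describe 8 arrays that share 1 slide per sex.

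The other genes of the pathway were taken from a list of 66, of which 54 were tested, and 0 of 54 were called in either direction (0 higher and 0 lower, background 0.097% and 0.128%). Before adjustment, limma gave p under 0.05 for 1 higher (Lgmn, background 7.37%) and 6 lower (background 10.6%). Log2 changes were below 0 for 36 and above 0 for 18, with a median of -0.11. In females both NEKO mice were below both controls for 29 of 54 genes (background 25.1%), and the change was higher in males for 44 of 54 (background 50.3%).

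The heavy chain genes outside the classical pair came nearest to a change. Of 12 tested, 10 had values below 0, and for 4 all NEKO mice were below all controls (background 5.36%). H2-Q10, a secreted class I molecule, was between 4.84 and 4.87 in controls and between 4.48 and 4.61 in NEKO mice (log2 change -0.31, SE 0.066, adjusted p = 0.106, limma) by the probe with the highest mean. Its other 3 probes gave log2 changes of -0.26, 0.064 and 0.15. They read far lower, at 1.03 to 1.56 for the first and -4.62 to -1.96 for the other 2. Both the level and the direction for H2-Q10 thus depended on the probe. H2-Q2 was between 5.00 and 5.05 in controls and between 4.69 and 4.78 in NEKO mice (-0.28, SE 0.062, adjusted p = 0.113), and its second probe gave -0.26.

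For the same H2-Q10 probe the change was -0.33 in females and -0.29 in males, and for H2-Q2 it was -0.27 and -0.29, with interaction values of 0.035 and -0.018 (limma adjusted p = 0.961 and 0.983). Mouse 6, at 4.61 and 4.78, was the highest NEKO mouse here too but lay below every control. H2-Q8 was more spread, from -1.36 to -0.69 in controls and from -2.82 to -1.53 in NEKO mice (-0.89, SE 0.30, adjusted p = 0.205), and H2-Bl was the fourth (-0.36, SE 0.12, adjusted p = 0.195), by 1 of its 3 probes, the other 2 giving -0.0060 and 0.076 with opposite signs in females (1.40 and 1.76) and males (-1.41 and -1.61). The largest value above 0 was in H2-Q1 (0.42, SE 0.28, adjusted p = 0.462). All are close relatives of H2-K1 and H2-D1, and the probes may read more than 1 of them.

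Of the other class II genes, 8 of 12 were tested, with 4 above and 4 below 0. The lowest was H2-Oa (-0.58, adjusted p = 0.324, limma), which with H2-Ob forms the brake on the peptide exchanger, followed by H2-DMb1 (-0.20), the partner of H2-DMa, and Ifi30 (-0.15), a thiol reductase of the endosome. The single probe of H2-Ob was well above background on 0 of 8 arrays. The highest were the endosomal proteases Lgmn (0.30, adjusted p = 0.169) and Ctss (0.20) and the ubiquitin ligase Marchf1 (0.29), which removes class II from the surface. Lgmn was between 5.82 and 6.00 in controls and between 6.06 and 6.34 in NEKO mice, with no overlap. Ctss trims the Cd74 chain, and its change was -0.48 in females and 0.89 in males.

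Of the peptide loading genes for class I, 11 of 12 were tested and 9 were below 0. Psmb9 (-0.42, SE 0.14, adjusted p = 0.209, limma) and Psmb8 (-0.23), the inducible proteasome subunits encoded beside Tap1, had the lowest values, with the proteasome activator Psme2 at -0.14. The chaperones Canx (0.20) and Tapbp (0.17) were the 2 above 0. For all 11 the change was higher in males than in females by the probe read for each (background 50.3%). The other 2 Canx probes gave 0.38 and 0.14 in females and 0.097 and 0.041 in males. The second Calr probe gave 0.017 in females and -0.055 in males, so for these 2 genes the order depended on the probe.

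By the probe with the highest mean and over both sexes, the transcription factors of these promoters showed values close to 0. Of 7 tested, the range ran from -0.16 for the NF-Y subunit Nfyb and -0.11 for Nfyc to 0.10 for Rfx5 and 0.15 for Rfxap, subunits of the factor that binds the X box, with no adjusted p below 0.378. The second Rfxap probe gave 0.27 (SE 0.072) and the second Nfyb probe 0.087. The change of Rfx5 was 0.37 in females and -0.17 in males (limma adjusted p of the interaction = 0.474). Nlrc5, the class I counterpart of Ciita, was well above background on 0 of 8 arrays. Of the interferon gamma axis, 16 of 17 genes were tested and 9 were below 0, the lowest being the chemokine Cxcl9 (-0.62, adjusted p = 0.587) and the GTPases Iigp1 (-0.47) and Igtp (-0.33), and the highest the feedback inhibitor Socs1 (0.31) and the factors Irf8 (0.30) and Irf2 (0.25).

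Cxcl9 was at -2.46 and -2.68 in control females 1 and 8, -4.23 and -4.84 in NEKO females 2 and 3, -2.48 and -3.14 in control males 4 and 7, and -2.63 and -1.55 in NEKO males 5 and 6. NEKO females were the lowest and mouse 6 the highest, the order seen for Ciita. For Ifng itself, 1 probe was well above background on 0 arrays and the other on 2.

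**Figure D3:**
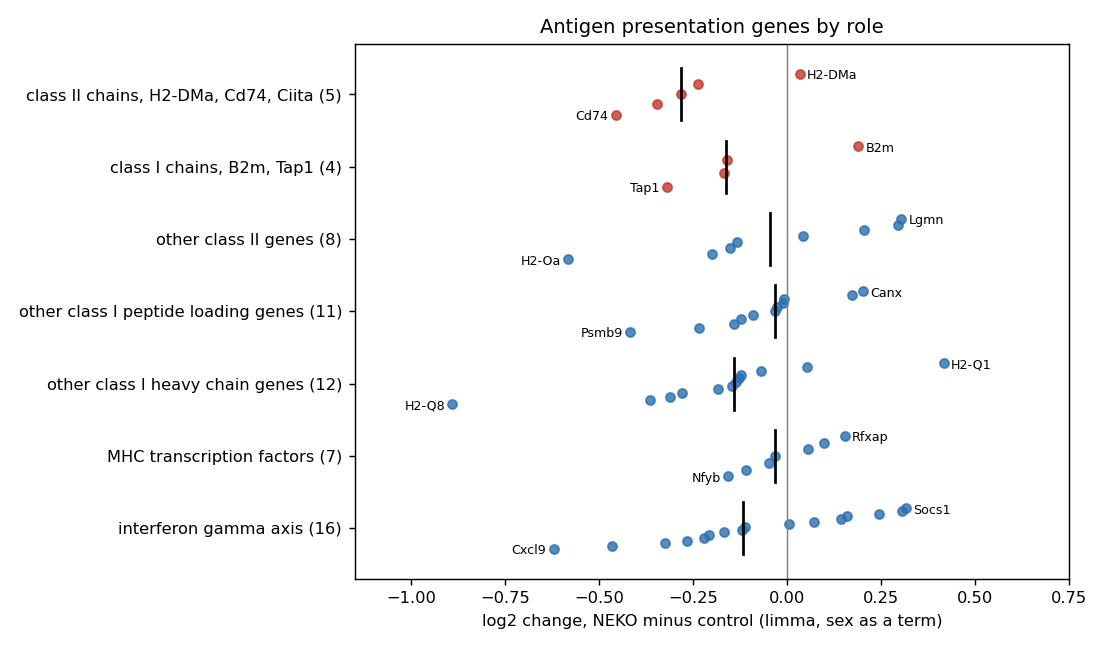
Log2 change from control to NEKO (limma with sex as a term) for the 9 listed genes (red, upper 2 rows) and 54 other pathway genes (blue), 1 point per gene and a vertical bar at the median of each row, with the number of genes in parentheses. Each row spreads over both sides of 0, and its lowest and highest genes are named.

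Markers of the cells that carry class II were read in the same arrays, as the sum of signals in multiples of the 75th percentile of the array. The sum of the 5 class II genes was 19.4 to 28.2 in controls and 13.03, 15.7, 16.1 and 32.2 in NEKO mice 2, 3, 5 and 6. For the T cell list, 5 of 8 markers were tested and 4 had a value on every array. Their sum was 0.487 and 0.634 in control females, 0.228 and 0.266 in NEKO females, 0.396 and 0.456 in control males, and 0.591 and 0.792 in NEKO males.

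The T cell sum was thus low in the NEKO females, as the class II sum was, and high in both NEKO males, of which mouse 6 alone had a high class II sum. In males, of the 4 markers with a value on every array, 3 were above both controls in both NEKO mice (background 24.2%). The other, Cd8a, was below both (background 28.4%). The interaction value was 2.72 for Cd3d and 1.84 for Cd3g, chains of the T cell receptor complex (limma adjusted p = 0.0906 for both). The lowest log2 change over both sexes was that of Cd8a (-1.28, adjusted p = 0.194). Mouse 6 was the highest NEKO mouse for 5 of 5 T cell markers.

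For the macrophage list (9 of 10 tested) the sum was 7.30 to 9.59 in controls and 6.84 to 11.0 in NEKO mice, and mouse 6 was the highest of the 8 for 6 of 9, the complement genes C1qa, C1qb and C1qc and the surface receptors Adgre1, Mrc1 and Cx3cr1. The largest changes over both sexes were those of Mrc1 (0.48), Cx3cr1 (0.32) and Adgre1 (0.21) above 0 and Csf1r (-0.19) below 0, none called. For the dendritic list (5 of 8 tested) the sum was 0.951 to 1.44 in controls and 0.823 to 1.47 in NEKO mice, lowest in mouse 2 and highest in mouse 6, with Itgax at 0.45 and the transcription factor Batf3 at -0.61.

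The B cell sum (3 of 7 tested) was highest in mouse 5 (0.460) and 0.258 to 0.325 in the other 7, with Ms4a1 at 0.43. Neutrophil markers were highest in NEKO male 5 and next in mouse 6, the sum of 3 of 7 tested being 6.67 and 1.61 there and 0.224 to 0.547 in the other 6 mice, with S100a9 at 1.64. The S100a8 probe was well above background in 1 of 4 controls and 3 of 4 NEKO mice, so no size is given for it. Sums of the 6 endothelial markers (21.2 to 25.1) and of the 9 tubule and podocyte markers (526 to 631) had overlapping ranges in the 2 groups. Whether the number of immune cells had a part in the values of the class II genes was not tested.

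**Figure D4:**
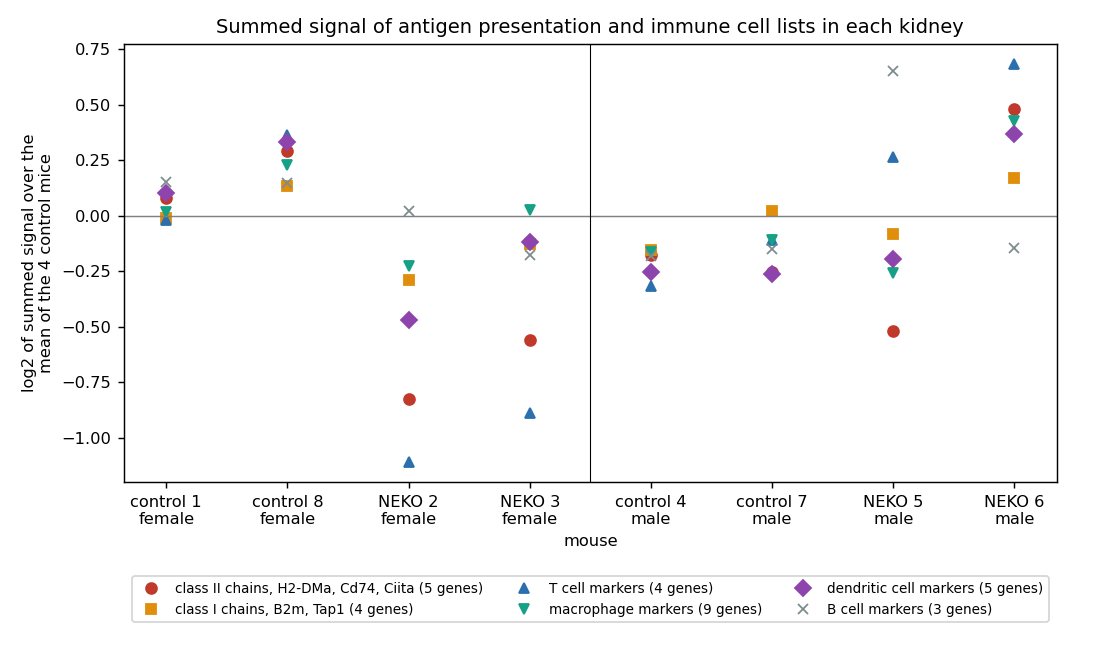
Summed signal of the 5 class II and 4 class I genes and of 4 immune cell marker lists in each kidney, as the log2 ratio to the mean of the 4 control mice, with females on the left and males on the right of the line. The class II sum is lowest in NEKO female 2 (-0.83) and highest in NEKO male 6 (0.48), and the class I sum stays between -0.29 and 0.17.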

How the data were processed

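Kidney RNA of 8 mice was read on 1-colour Agilent arrays. The scanner files deposited by the authors hold the background-subtracted intensity of each spot (processed signal, Feature Extraction 10.7.3.1), and the authors' deposited value table holds log2 values of the same arrays. Both were compared with each probe centred on its own median over the 8 arrays. So centred, log2 processed signal less the 75th percentile equalled the deposited value within 0.01 for 100% of values. The deposited table had column medians from -0.04 to 0.08 and served as an alternative. Here control spots and outlier spots were left out, spots of 1 probe were averaged, and the 75th percentile of non-control probes was subtracted from each array. Probes were named by accession through RefSeq (26690 of 41174). Those well above background on at least 4 of 8 arrays with values on at least 6 were kept, the probe with the highest mean standing for its gene. This gave 13570 named genes and 6023 unnamed transcripts.

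Groups came from the sample labels. limma 3.58.1 (R 4.3.3) was fitted with genotype and sex, with Benjamini-Hochberg adjustment over all 19593, and again with their interaction and within each sex. The 5 genes nearest to Cd74 and to H2-K1 were named, as were the genes with the largest change in each direction of each list (up to 3) and all listed genes, and genes named besides these were chosen after their values were seen. Values of a single gene were also tested by exact permutation. The computations were tested on simulated data. The listed genes, pathway lists and marker lists were chosen with earlier results of these data known. Alternatives covered background correction, scaling, probe filters and summaries, the sex term, the variance model, the authors' table, the unpaired comparison that the study's methods name, and each mouse left out. The result of 1 gene of the pathway lists is not reported here.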

Additional observations from a re-analysis of the deposited data

Results flagged for a closer look

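H2-DMa in the NEKO group was noted because mouse 6 lay far from the others, its gap to the next mouse being 0.915 of the range of the 4 (-0.51 against -1.77 to -1.89). Of 18 groups of 4 examined in this way, chance alone gives about 1 in 20.

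Ciita and B2m were noted by a rule on single mice. Each NEKO female lay below the mean of the control females, and each NEKO male above that of the control males. Mean changes also had opposite signs in females and males for H2-Aa, H2-Ab1, H2-DMa and H2-K1, which did not meet this rule. For Ciita, NEKO male 5 (-1.65) was still below control male 4 (-1.50). The male change less the female change was 1.11 for Ciita (both NEKO females below, and a male mean of 0.31 above, the controls) and 0.89 for B2m (-0.26 in females and 0.64 in males). The interaction test did not call either difference (limma adjusted p = 0.288 and 0.237).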

How the results depend on the processing

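None of the 9 genes was called in either direction under any alternative, the methods' unpaired comparison without adjustment included, nor was any sex difference called. Over the alternatives the adjusted p of the genotype change of these genes was never below 0.173 (Tap1 without NEKO mouse 6), and the lowest p of the unadjusted unpaired comparison was 0.0709 (H2-D1). Among the 54 other pathway genes, that comparison without adjustment counted 1 higher and 6 lower, beside 743 and 882 of the 13570 named genes. Under all other settings 0 of the 54 were counted. Cd74, H2-D1 and Tap1 kept a change below 0 throughout. In males alone the direction turned for H2-Aa (0.086), H2-Ab1 (0.32), Ciita (0.31) and H2-K1 (0.051), and in females alone for H2-DMa (-0.53) and B2m (-0.26). Leaving out 1 mouse turned H2-DMa to -0.34 without NEKO mouse 6, to -0.094 without control mouse 4 and to -0.066 without control mouse 7 (range over single mice left out -0.34 to 0.18), and the sex difference of H2-D1 to -0.064 without NEKO mouse 2, to -0.033 without NEKO mouse 6 and to -0.0045 without control mouse 8 (range -0.064 to 0.17). The male values without NEKO mouse 6, an alternative chosen after seeing the data, moved by more than the spread for H2-Aa (-0.49) and Tap1 (-0.43). Members with a higher change in males numbered 8 or 9. The cause of these shifts was not tested.

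Over all named genes the calls were 15 higher and 23 lower. They became 57 and 81 with normexp, 34 and 42 with a trended robust variance, 29 and 53 with array weights, 6 and 12 with detection on all 8 arrays, 9 and 14 without the sex term, 113 and 71 in males, 3 and 0 in females, 204 and 208 averaged over the sexes with the interaction, and 0 and 1 by the methods' comparison after adjustment. Without 1 mouse they ran from 8 to 19 higher and from 7 to 18 lower. No paired analysis was possible because the replicate numbers run from 1 to 8 over both groups and none is shared. Slide as a block was not run, since slide and sex are the same split. Signal over background kept 7 of the 66 other pathway genes from being tested (5 more had no named probe), and not the 16 probes of the listed genes, all of which were well above it.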
